A study of Mus musculus with 18 samples.

Results

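The genes described here are the nuclear genes for the subunits of the mitochondrial respiratory chain and ATP synthase, followed in mouse pancreatic acinar cells with and without the cystine transporter xCT. They were chosen by symbol in the count table (the Nduf, Sdh, Uqcr, Cox4 to Cox8 and Atp5 series, without pseudogenes and assembly factors), and genes with fewer than 30 counts over the 18 libraries were left out. This gave 77 genes of the 46603 in the table: 37 of complex I, 4 of complex II, 8 of complex III, 11 of complex IV and 17 of complex V. The symbols and the count minimum set the membership, and the minimum removed Cox8b and Cox8c with 0 counts, Cox7b2 with 4, Cox6b2 with 21 and Cox7a1 with 20. The symbols do not draw the complexes exactly. Cox4i1, Cox4i2, Ndufab1, Cyc1, the cytochrome c gene Cycs, Usmg5 and the ATP synthase inhibitor Atpif1 were missed. Taken here as no structural subunits were 4 of the 77: Atp5s (coupling factor B), Atp5sl (an assembly factor of complex I), Cox7a2l (a factor for joining complexes III and IV) and Ndufa4l2 (a paralog of Ndufa4). Ndufa4 itself is now placed in complex IV, but by its symbol it is counted with complex I throughout.

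The study asked how acinar cells rely on system xc- when they lose their identity in culture. Acinar cells freshly isolated from the pancreas of WT mice, or of mice without xCT (KO, which lack Slc7a11), were kept in suspension in Advanced RPMI medium, in which they dedifferentiate. RNA was taken at day 0, day 1 and day 4, with 3 replicates per genotype and day that the series describes as biological, 18 libraries in 6 groups. The same study measured respiratory and glycolytic ATP production of WT and KO cells at day 1, so the RNA levels of the respiratory subunits bear on a process it examined. It reported that WT and KO cells were metabolically similar in that assay. The labels give no age of the mice and do not say whether a replicate number follows one animal through the 3 days, so p-values measure the spread between these libraries.

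The respiratory chain sits in the inner mitochondrial membrane. Complexes I and II take electrons from NADH and succinate, complex III passes them to cytochrome c, complex IV hands them to oxygen, and ATP synthase (complex V) uses the proton gradient that results to make ATP. Most subunits are encoded in the nucleus and imported, while a small core of complexes I, III, IV and V is encoded by mitochondrial DNA. Acinar cells use much of this ATP for the synthesis and secretion of digestive enzymes.

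Libraries held 12127474 to 20135435 counts. Digestive enzyme genes (a list of 35) took 82.7% of the counts in WT at day 0, 71.1% at day 1 and 13.1% at day 4, and 82.6%, 66.9% and 10.2% in KO. Slc7a11 had 1 to 33 counts in the KO libraries and 48 to 2286 in the WT libraries, as the labels say. WT replicate 1 stood apart at all 3 days by counts of Y-linked genes (Uty had 5, 9 and 72) with 0 or 1 count of Xist, while the other 15 libraries had 0 counts of Uty and 86 or more of Xist. It was therefore also left out as an alternative. Of the markers of other cell types, 8 fibroblast markers summed to 94.1 to 222 CPM (counts scaled to library size) in WT at day 0. Their range was 8.82 to 12.5 CPM one day later and 234 to 322 CPM in the day 4 libraries, and 7 islet markers reached 1956 CPM in 1 library of WT at day 0. In such bulk samples, fewer cells of a type and less RNA per cell cannot be told apart.

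The enzyme genes decide what a level means in these libraries, so the subunits are given on 3 scales. As a share of all counts the 77 genes took 0.189 ± 0.00639% (mean ± SD, N = 3) in WT at day 0, 0.236 ± 0.00783% at day 1 and 0.783 ± 0.0107% at day 4. With the enzyme genes left out of the total, the share was 1.09 ± 0.0687%, 0.815 ± 0.0279% and 0.902 ± 0.0202%. In KO cells the share of all counts was 0.188 ± 0.00797%, 0.249 ± 0.0160% and 0.777 ± 0.00817%, and without the enzyme genes it was 1.08 ± 0.0201%, 0.754 ± 0.0473% and 0.865 ± 0.00884%. The subunits thus gained share of the whole library at each step and held a smaller share of the remaining RNA at both culture days than at day 0. The third scale is CPM scaled by TMM, which sets the median gene near no change, and the tests below use it. Library totals in place of TMM moved the median of all 13203 genes tested by 0.998 (log2) from day 0 to day 1 in WT, by 2.02 from day 1 to day 4 and by 3.10 from day 0 to day 4. Each fold change below is therefore relative to the median gene, and "rose" or "fell" means relative to it.

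**Figure D1:**
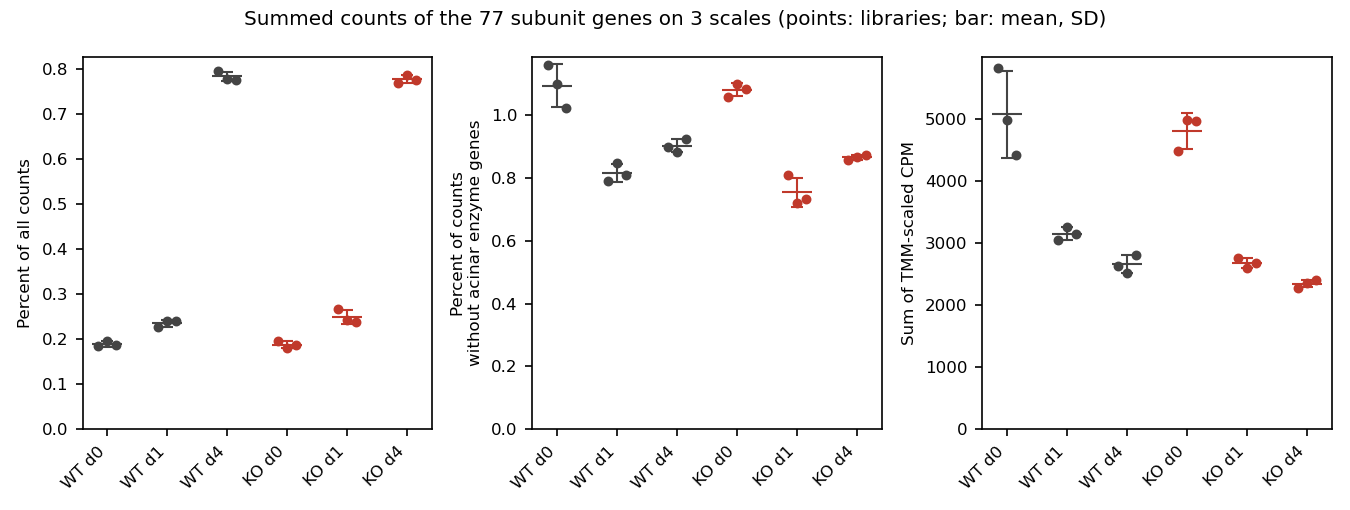
Summed counts of the 77 genes in each library (points) with the mean and SD of each group (bars), WT in grey and KO in red, by day (d0, d1, d4), as a percent of all counts, as a percent of counts without 35 digestive enzyme genes, and as TMM-scaled CPM. In WT the means are 0.189%, 0.236% and 0.783% of all counts at the 3 days, and 1.09%, 0.815% and 0.902% of the counts without those genes.

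Levels compared between genes need a correction for length, for which the deposited FPKM were used. In WT cells at day 0, Atp5b, the catalytic beta subunit of ATP synthase, stood at 227 ± 32.1 FPKM (N = 3), Cox6a1 of complex IV at 147 ± 18.7 and Cox8a at 118 ± 21. These 3 genes had the highest means over the 18 libraries among the 76 members in the FPKM table. Ndufs1, the largest subunit of complex I, stood at 4.09 ± 0.125 FPKM. The lowest means over all libraries were those of Ndufb2 (0.620), Ndufa4l2 (0.412) and Ndufb4 (0.275). These levels rest on the deposited gene lengths, 8086 bases for Ndufs1 and 5628 for Ndufb2, where the members' median was 1485. In CPM, Ndufb2 had 7.36, 7.74 and 4.83 in WT at day 0. The authors' quantile normalization gave equal values to some libraries, so these FPKM serve here for levels between genes and not for changes.

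Isoforms known from particular tissues were at or near 0. Cox6a2, the heart and muscle form of Cox6a, had 0 to 15 counts in each library, and Ndufa4l2, which is known as a hypoxia-induced gene, had 0 to 17. Neither passed the filter on low counts, so 75 of the 77 genes were tested. Cox7a1, Cox6b2, Cox7b2 and Cox8b, forms known from muscle, testis or other particular tissues, were under the count minimum, as given above, while their partners Cox6a1, Cox6b1, Cox7a2, Cox7b and Cox8a were all tested.

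Atp5g1, Atp5g2 and Atp5g3 are a case apart. They encode the same mature c subunit, which forms the rotor ring of ATP synthase, with different import sequences, so 3 separate genes supply one product. Because only the genes differ, the 250 bases before their RefSeq start sites (GRCm38.p6) are shown, with 2 other members whose promoters hold the same motif. Capitals mark CGCATGCG, the core of the site of NRF1 (a transcription factor known for respiratory genes), and CCGGAAG, a core of ETS factors such as GABPA, on either strand.

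Atp5g1, chr11:96075632-96075881, minus strand: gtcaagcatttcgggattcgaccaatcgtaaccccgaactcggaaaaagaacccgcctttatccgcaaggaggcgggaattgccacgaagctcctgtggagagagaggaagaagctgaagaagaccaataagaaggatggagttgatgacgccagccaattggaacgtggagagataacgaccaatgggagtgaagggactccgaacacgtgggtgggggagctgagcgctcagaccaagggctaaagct
Atp5g2, chr15:102671048-102671297, minus strand: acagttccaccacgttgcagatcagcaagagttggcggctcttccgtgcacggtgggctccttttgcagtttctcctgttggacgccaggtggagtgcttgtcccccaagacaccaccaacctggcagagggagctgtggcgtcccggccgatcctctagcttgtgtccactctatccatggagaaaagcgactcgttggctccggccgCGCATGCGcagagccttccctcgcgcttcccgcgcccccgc
Atp5g3, chr2:73911327-73911576, minus strand: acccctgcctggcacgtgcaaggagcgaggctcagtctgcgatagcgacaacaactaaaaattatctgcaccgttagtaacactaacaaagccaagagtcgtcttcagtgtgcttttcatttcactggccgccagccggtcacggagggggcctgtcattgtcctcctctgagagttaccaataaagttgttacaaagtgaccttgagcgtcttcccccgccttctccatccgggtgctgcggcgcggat
Cox6a1, chr5:115348959-115349208, minus strand: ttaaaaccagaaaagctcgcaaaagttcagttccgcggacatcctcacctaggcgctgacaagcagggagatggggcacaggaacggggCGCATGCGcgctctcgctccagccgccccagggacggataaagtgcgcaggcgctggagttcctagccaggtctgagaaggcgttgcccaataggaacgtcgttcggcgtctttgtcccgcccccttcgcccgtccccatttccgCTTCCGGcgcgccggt
Atp5k, chr5:108434400-108434649, minus strand: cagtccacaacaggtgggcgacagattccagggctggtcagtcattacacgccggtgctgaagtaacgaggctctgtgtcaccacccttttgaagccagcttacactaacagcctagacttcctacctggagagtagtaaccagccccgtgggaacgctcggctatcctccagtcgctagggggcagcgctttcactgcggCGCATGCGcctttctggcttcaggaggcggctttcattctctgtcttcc

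Of the 3 c subunit genes, Atp5g2 held CGCATGCG, which started 41 bases before its start site. Atp5g1 and Atp5g3 held neither motif in these stretches. The RefSeq start of Atp5g2 lies inside the counted gene (chr15:102662864-102672352, minus strand), and so does its whole stretch. Those of Atp5g1 and Atp5g3 lie at the outer end of the counted gene, so the 3 stretches are not placed alike. A promoter was found in the RefSeq table for 65 of the 77 genes. In windows of 250 bases before to 50 after the start, CGCATGCG occurred in 9 of the 65 (13.8%) and in 2.77% of 17492 protein-coding genes, and CCGGAAG in 16 (24.6%) against 12.9%. ATGGCGG, a core of YY1 sites, occurred in 11 (16.9%) against 6.05%, and GGGCGG, a core of SP1 sites, in 26 (40%) against 49.2%. Genes with more than 1 listed start counted once if any window matched, both strands were searched, and none of these motifs contains another. The matches describe letters in a window and not bound sites.

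From day 0 to day 1 in WT cells the subunits fell as a group relative to the median gene. Of the 75 tested, 67 were called lower and 0 higher (edgeR's quasi-likelihood test, Benjamini-Hochberg adjusted p under 0.05), where 26.9% of all 13203 genes were called lower and 28.6% higher. By DESeq2, 68 were lower and 0 higher (30.5% and 26.9% of all genes), and 67 members had an unadjusted p under 0.05 in edgeR (59.6% of all genes in either direction). The median log2 fold change was -0.74 against 0.01 for all genes, and with library totals the members' median was 0.27 against 0.998, so the sign turned while the distance from the median gene stayed at -0.73 to -0.75. KO cells did the same, with 69 lower, 0 higher and a median of -0.91 (27.6% of all genes were lower and 30.5% higher). Without WT replicate 1, 58 members were lower in WT (22.8% of all genes).

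All 5 complexes took part in this first fall. Complex I had 35 of 36 tested genes lower in WT with a median of -0.86, complex II 3 of 4 (-0.71), complex III 7 of 8 (-0.59), complex IV 9 of 10 (-0.79) and complex V 13 of 17 (-0.54). Without the 4 genes that are no structural subunits, 67 of the remaining 72 tested were lower. Markers of other cell types moved with this step: all 8 fibroblast markers, all 6 of smooth muscle and 5 of 6 of endothelium were called lower in WT. Other lists rose in their summed level, duct markers from a mean of 151 to 631 CPM and macrophage markers from 35.9 to 66.6 CPM. Single markers within these lists differed in direction. Their part in the subunit values was not tested. The differences between complexes were not tested.

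**Figure D2:**
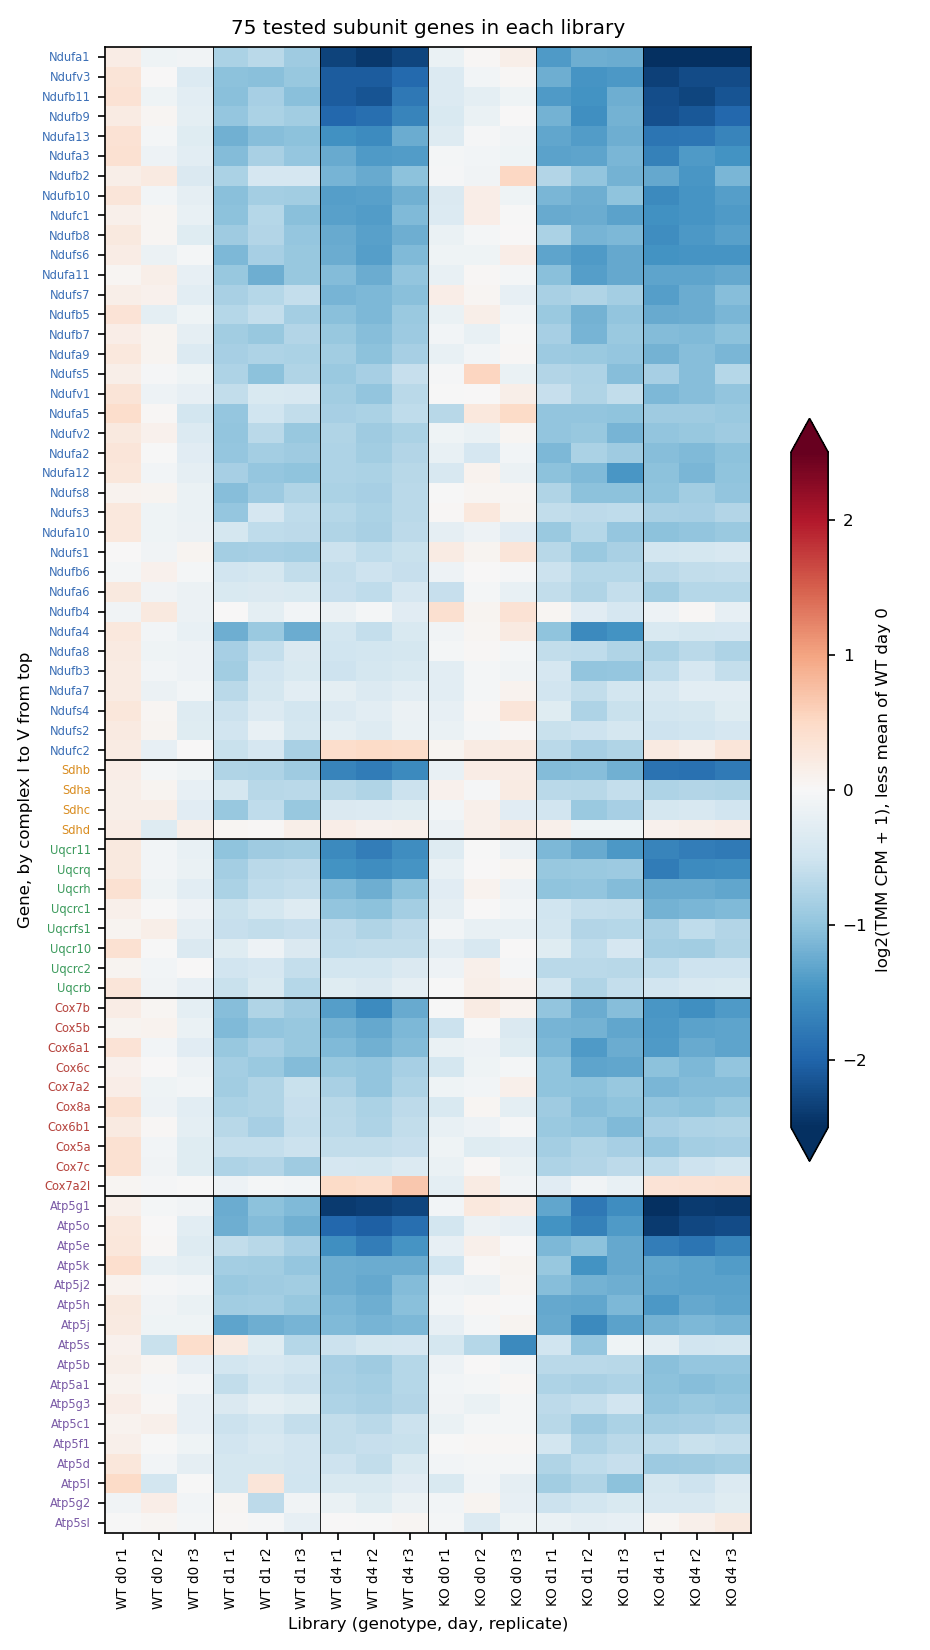
Each of the 75 tested genes (rows, by complex I to V from the top and by change within a complex) in each of the 18 libraries (columns), as log2(TMM CPM + 1) less the mean of WT at day 0. Blue is lower and red higher relative to the median gene; on library totals the day 4 columns would be higher for all 75 genes. Over the course in WT, Ndufa1 (-2.45) and Atp5g1 (-2.41) turn deep blue and Ndufc2 (0.48) and Cox7a2l (0.54) turn red.

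From day 1 to day 4 the calls were made in both directions. In WT, 30 of 75 were called lower and 7 higher, where 26% of all genes were lower and 26.3% higher, with a median of -0.14. In KO, 22 were lower and 8 higher (27.1% and 26.2% of all genes), with a median of -0.11. On library totals all 75 were called higher in both genotypes, as were 92.4% of all genes in WT (2.28% were lower), and on totals without the enzyme genes 39 were higher and 10 lower in WT (48.8% and 14.6% of all genes). In WT, complex II had 1 of 4 lower and 1 higher, complex III 5 of 8 lower and 1 higher, complex V 9 of 17 lower and 0 higher, and complex I 14 of 36 lower and 3 higher, while complex IV had 1 of 10 lower and 2 higher. Over the whole course from day 0 to day 4, 66 were lower and 2 higher in WT (26.9% and 33.5% of all genes), and 67 were lower and 1 higher in KO (29% and 35.3%).

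**Figure D3:**
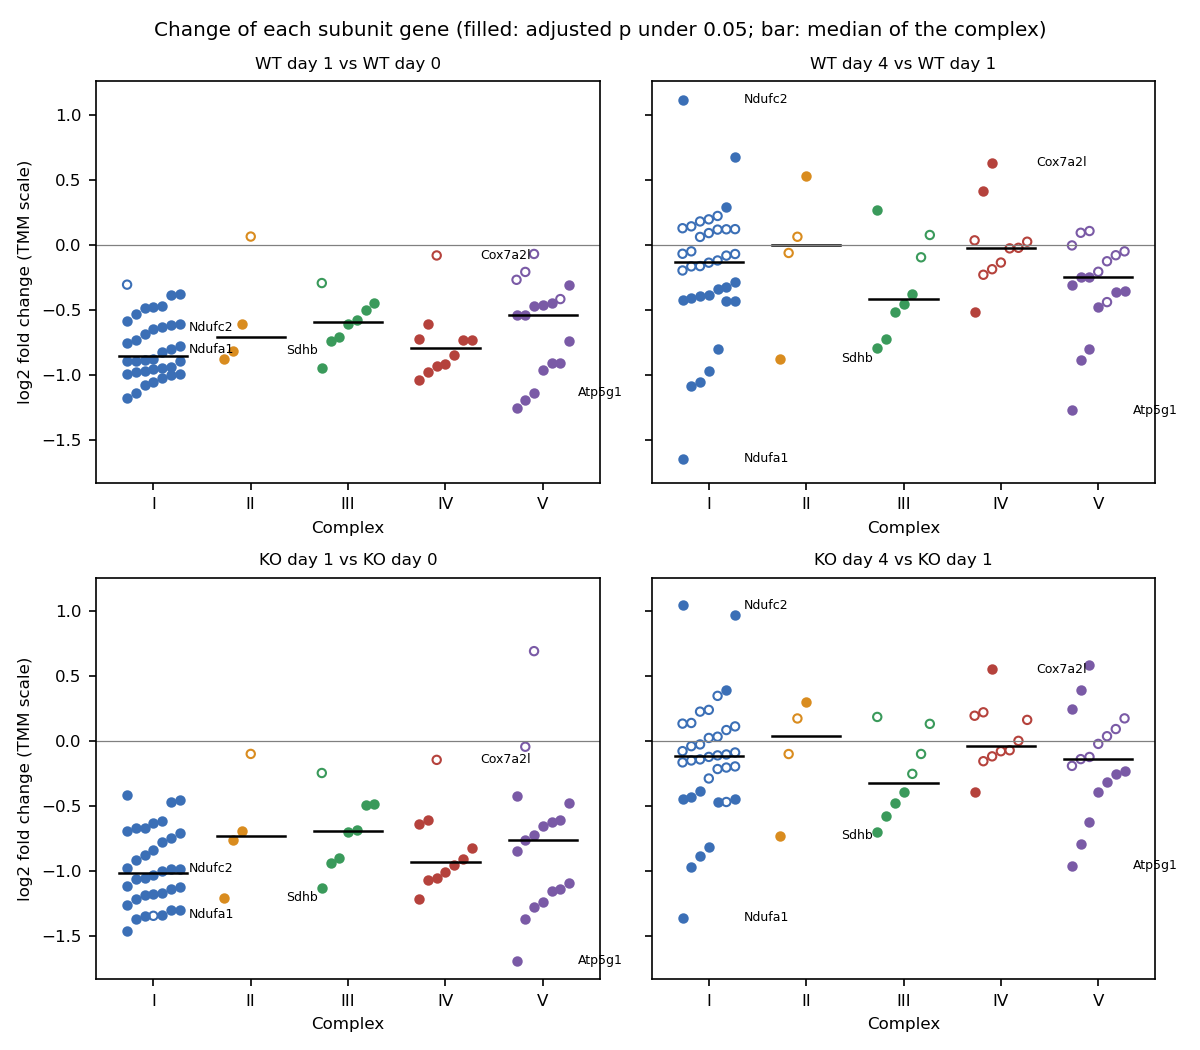
log2 fold change of each tested gene on the TMM scale, by complex, for the first day (left) and for day 1 to day 4 (right), in WT (top) and KO (bottom). Filled points have an adjusted p under 0.05 and bars are medians. On the left nearly all points lie below 0 (on library totals the WT median would be 0.27), and on the right they spread from -1.65 for Ndufa1 to 1.11 for Ndufc2 in WT.

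Complex I, the entry point for electrons from NADH, held the lowest and the highest change from day 1 to day 4 in WT. Ndufa1, a small membrane subunit needed for assembly (gene at chrX:37187588-37191163, minus strand, GRCm38), stood at 67.1, 54.8 and 55.4 CPM in the WT libraries at day 0, at 33.6, 36.4 and 31.3 at day 1 and at 11, 10.2 and 11.2 at day 4. In KO it stood at 52.5, 60.4 and 65.1 CPM at day 0, 21.5, 24.7 and 24.3 at day 1 and 8.97, 9.14 and 9.34 at day 4. In neither genotype did the 3 days overlap. The log2 fold change was -0.81 ± 0.11 (SE), adjusted p = 1.32e-07 for the first day, -1.65 ± 0.10 (SE), adjusted p = 2.11e-14 from day 1 to day 4, and -2.45 ± 0.11 (SE), adjusted p = 1.36e-18 over the course in WT. In KO it was -1.34 ± 0.11 (SE), adjusted p = 4.25e-12, then -1.36 ± 0.10 (SE), adjusted p = 2.27e-12, and -2.69 ± 0.11 (SE), adjusted p = 1.11e-19 over the course.

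Ndufc2, another membrane subunit, went the other way after day 1. It stood at 19.8, 14.9 and 17.2 CPM in WT at day 0, 11.4, 12.6 and 9.37 at day 1 and 23.8, 24.3 and 24.1 at day 4, so that its lowest values were at day 1 and its highest at day 4. KO libraries had 18.1, 19.9 and 20.1 CPM at day 0, 10.3, 9.27 and 9.74 at day 1 and 20.2, 19 and 21.4 at day 4. Its log2 fold change was -0.64 ± 0.14 (SE), adjusted p = 0.000244 and then 1.11 ± 0.11 (SE), adjusted p = 1.34e-09 in WT, and 1.05 ± 0.11 (SE), adjusted p = 3.25e-09 from day 1 to day 4 in KO. Over the course in WT it was 0.48 ± 0.12 (SE), adjusted p = 0.0011. Within each library, which needs no scaling, Ndufc2 had 0.296, 0.271 and 0.310 counts per count of Ndufa1 in WT at day 0 and 2.17, 2.39 and 2.15 at day 4.

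Ndufa4 fell on the first day (-1.18 ± 0.14 (SE), adjusted p = 4.98e-08 in WT) and rose from day 1 to day 4 (0.68 ± 0.13 (SE), adjusted p = 7.25e-05), with 49.7, 39.1 and 36.1 CPM at day 0, 17.2, 21.1 and 16.9 at day 1 and 29.5, 26.9 and 31.6 at day 4. Ndufv3, an accessory subunit of the NADH-oxidizing arm, had 63.1, 50.003 and 39.4 CPM at day 0, 24.1, 23.8 and 25.2 at day 1 and 11.1, 11 and 12.3 at day 4 and fell at both steps, the second with a log2 fold change of -1.09 ± 0.12 (SE), adjusted p = 1.12e-08. Ndufa13 (also known as GRIM-19) was among the steepest of complex I on the first day, -1.14 ± 0.13 (SE), adjusted p = 9.2e-09. The core subunit Ndufs1 had 29.4, 27.4 and 30.5 CPM at day 0, 15.7, 16 and 15.6 at day 1 and 19.7, 18.3 and 19.6 at day 4, lowest at day 1 without overlap with the other days. Ndufb4 has 2 near-identical pseudogene copies, so its value is uncertain.

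Complex II, succinate dehydrogenase, has no mitochondrially encoded subunit and only 4 genes, and they did not move together. Sdha, which carries the flavin and oxidizes succinate, stood at 102, 96.9 and 80.3 CPM in WT at day 0, 67.8, 56.9 and 57.9 at day 1 and 56.7, 54.3 and 63.8 at day 4. Its iron-sulfur partner Sdhb stood at 97.7, 83.5 and 80.5 CPM at day 0, 51.1, 50.8 and 46.3 at day 1 and 27.1, 25.3 and 28.1 at day 4. From day 1 to day 4 the log2 fold change of Sdhb was -0.88 ± 0.10 (SE), adjusted p = 9.59e-09, while the value of Sdha was -0.06 ± 0.10 (SE), adjusted p = 0.602. On the first day both were called lower, Sdha at -0.61 ± 0.10 (SE), adjusted p = 7.85e-06 and Sdhb at -0.82 ± 0.10 (SE), adjusted p = 6.31e-08.

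The membrane anchors of complex II differed again. Sdhd had 30.3, 20.9 and 29.5 CPM at day 0, 27.7, 27.2 and 29.4 at day 1 and 30.1, 28.7 and 29.1 at day 4 in WT, with overlapping days, and its first-day value was 0.06 ± 0.12 (SE), adjusted p = 0.699. Sdhc had 41.7, 42.3 and 30.7 CPM at day 0, 19.3, 24 and 19.1 at day 1 and 29.2, 29.8 and 30.4 at day 4, and from day 1 to day 4 it rose (0.52 ± 0.12 (SE), adjusted p = 0.000645). Within libraries, the Sdhb count per count of Sdha was 0.941 ± 0.0719 (SD, N = 3) in WT at day 0, 0.816 ± 0.0708 at day 1 and 0.462 ± 0.0193 at day 4. In KO it was 0.927 ± 0.160, 0.678 ± 0.0589 and 0.437 ± 0.0165. In both genotypes day 4 lay below all libraries of the other 2 days. Over the course Sdhb was called lower in WT (-1.70 ± 0.10 (SE), adjusted p = 3.43e-15) and in KO (-1.94 ± 0.10 (SE), adjusted p = 1.14e-16).

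In complex III, the cytochrome bc1 complex, the small subunits Uqcr11 and Uqcrq fell most. Uqcr11 had 71.1, 56.7 and 52.3 CPM at day 0, 29.1, 31.7 and 32.2 at day 1 and 19.2, 17.2 and 19.8 at day 4 in WT, with a first-day log2 fold change of -0.95 ± 0.12 (SE), adjusted p = 3.25e-08. Uqcrq had 167, 134 and 126 CPM at day 0, 78.3, 88.3 and 89.5 at day 1 and 49.6, 47.6 and 50.4 at day 4, and from day 1 to day 4 the value was -0.79 ± 0.10 (SE), adjusted p = 7.48e-08. The days did not overlap for either gene. In complex IV, cytochrome c oxidase, Cox5b had 49.3, 49.8 and 41.5 CPM at day 0, 21.3, 23.2 and 23.9 at day 1 and 20.1, 18.8 and 21 at day 4, with most of its change on the first day (-1.04 ± 0.12 (SE), adjusted p = 8.76e-09). Cox7b fell again after day 1 (-0.52 ± 0.11 (SE), adjusted p = 0.000195), while Cox7c rose (0.41 ± 0.11 (SE), adjusted p = 0.00323).

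Cox7a2l was the clearest exception in the Cox series. It stood at 53.1, 50.8 and 51 CPM in WT at day 0, 47.1, 49.7 and 49.3 at day 1 and 72.7, 70.7 and 82.5 at day 4, and in KO at 43.6, 59.6 and 48.2 at day 0, 42.4, 48.7 and 45.5 at day 1 and 65.7, 67 and 67.8 at day 4. Its first-day value was -0.08 ± 0.10 (SE), adjusted p = 0.519 in WT, and it rose from day 1 to day 4 (0.63 ± 0.10 (SE), adjusted p = 2.15e-06). Over the course it was called higher in WT (0.54 ± 0.10 (SE), adjusted p = 2.42e-05) and in KO (0.41 ± 0.10 (SE), adjusted p = 0.000681). Cox7a2, the subunit of which it is a relative, had 61.1, 50.4 and 51.4 CPM at day 0, 29.3, 31.7 and 36.6 at day 1 and 30.6, 26.6 and 31.4 at day 4 in WT. Within libraries, Cox7a2l counts per count of Cox7a2 were 0.956 ± 0.0765 at day 0, 1.51 ± 0.141 at day 1 and 2.55 ± 0.152 at day 4 in WT, and 0.945 ± 0.187, 1.71 ± 0.138 and 2.72 ± 0.0474 in KO, with no overlap between days.

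In ATP synthase the c subunit genes whose promoters are shown above parted. Atp5g1 stood at 94.5, 83.9 and 81.3 CPM in WT at day 0, 36.1, 41.8 and 39.9 at day 1 and 15.8, 16 and 16.9 at day 4, and in KO at 82.1, 104 and 97.8 at day 0, 34.4, 24.4 and 28.8 at day 1 and 14.1, 15.5 and 15.4 at day 4. Atp5g2 had 16.7, 20.3 and 17 CPM at day 0, 18.6, 11.1 and 16.8 at day 1 and 15.9, 14.4 and 16.1 at day 4 in WT, with day 1 overlapping both other days. Atp5g3 had 128, 117 and 99.7 CPM at day 0, 89.2, 96.4 and 92.3 at day 1 and 66.7, 64.8 and 68.2 at day 4, each day below the one before. Atp5g1 fell on the first day (-1.14 ± 0.11 (SE), adjusted p = 4.69e-10 in WT and -1.69 ± 0.11 (SE), adjusted p = 7.84e-14 in KO) and again to day 4 (-1.27 ± 0.11 (SE), adjusted p = 3.39e-11 in WT). The values of Atp5g2 were -0.21 ± 0.15 (SE), adjusted p = 0.252 and -0.01 ± 0.13 (SE), adjusted p = 0.971 in WT. Over the course Atp5g1 was called lower in WT (-2.41 ± 0.11 (SE), adjusted p = 6.78e-18) and in KO (-2.65 ± 0.11 (SE), adjusted p = 5.46e-19).

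Of the counts per kilobase over the 3 genes, Atp5g1 made up 21.8 ± 1.14% (SD, N = 3) in WT at day 0, 13.4 ± 0.973% at day 1 and 7.67 ± 0.233% at day 4, and 24.5 ± 2.43%, 12.2 ± 2.19% and 8.07 ± 0.232% in KO. Atp5g2 made up 13.3 ± 1.73%, 15.5 ± 3.91% and 21.5 ± 0.643% in WT, and 13.1 ± 1.38%, 15.7 ± 0.553% and 21.5 ± 0.736% in KO. Atp5g3 made up the largest share throughout, 64.9 ± 1.80%, 71.1 ± 2.99% and 70.9 ± 0.486% in WT, and 62.4 ± 3.02%, 72 ± 1.68% and 70.4 ± 0.735% in KO. Between day 0 and day 4 the share of Atp5g1 was smaller and those of Atp5g2 and Atp5g3 were larger, without overlap of libraries in either genotype. At day 1 the share of Atp5g3 was already above all day 0 libraries, while that of Atp5g2 overlapped day 0 in WT. Such shares do not depend on scaling between libraries, but their size rests on the gene lengths used. These were 4912 bases for Atp5g1, 1675 for Atp5g2 and 2181 for Atp5g3. In CPM, which are not divided by length, WT at day 0 had 94.5, 83.9 and 81.3 for Atp5g1. Atp5g3 had 128, 117 and 99.7 in the same libraries. For Atp5g1, 26 other genes hold a near-identical stretch, 1 of them a pseudogene, and Atp5g2 has 2 such pseudogenes, so reads from these stretches are uncertain.

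Among the other ATP synthase genes, Atp5o, which encodes the stalk subunit that confers oligomycin sensitivity, had 178, 149 and 123 CPM at day 0, 62.7, 69.9 and 63.8 at day 1 and 37.1, 35.4 and 39.7 at day 4 in WT. Its log2 fold change was -1.20 ± 0.11 (SE), adjusted p = 2.32e-10 on the first day and -0.81 ± 0.11 (SE), adjusted p = 3.83e-07 from day 1 to day 4. Atp5j, a coupling factor of the stalk, fell on the first day (-1.26 ± 0.11 (SE), adjusted p = 3.2e-11), with 85.4, 67.2 and 67.6 CPM at day 0, 28.8, 30.7 and 32.2 at day 1 and 33.5, 32.2 and 33 at day 4. Catalytic Atp5b stood at 642, 602 and 502 CPM at day 0, 421, 440.0 and 419 at day 1 and 327, 313 and 352 at day 4, falling by less than Atp5o in each step. The antisense RNAs Gm15976 and D430001F17Rik cover 18.1% and 17.5% of the exonic bases of Atp5o. Without a stated strand setting those reads cannot be told apart. Another gene entry of the same name on the same strand shares 12.3%, which no strand setting separates.

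**Figure D4:**
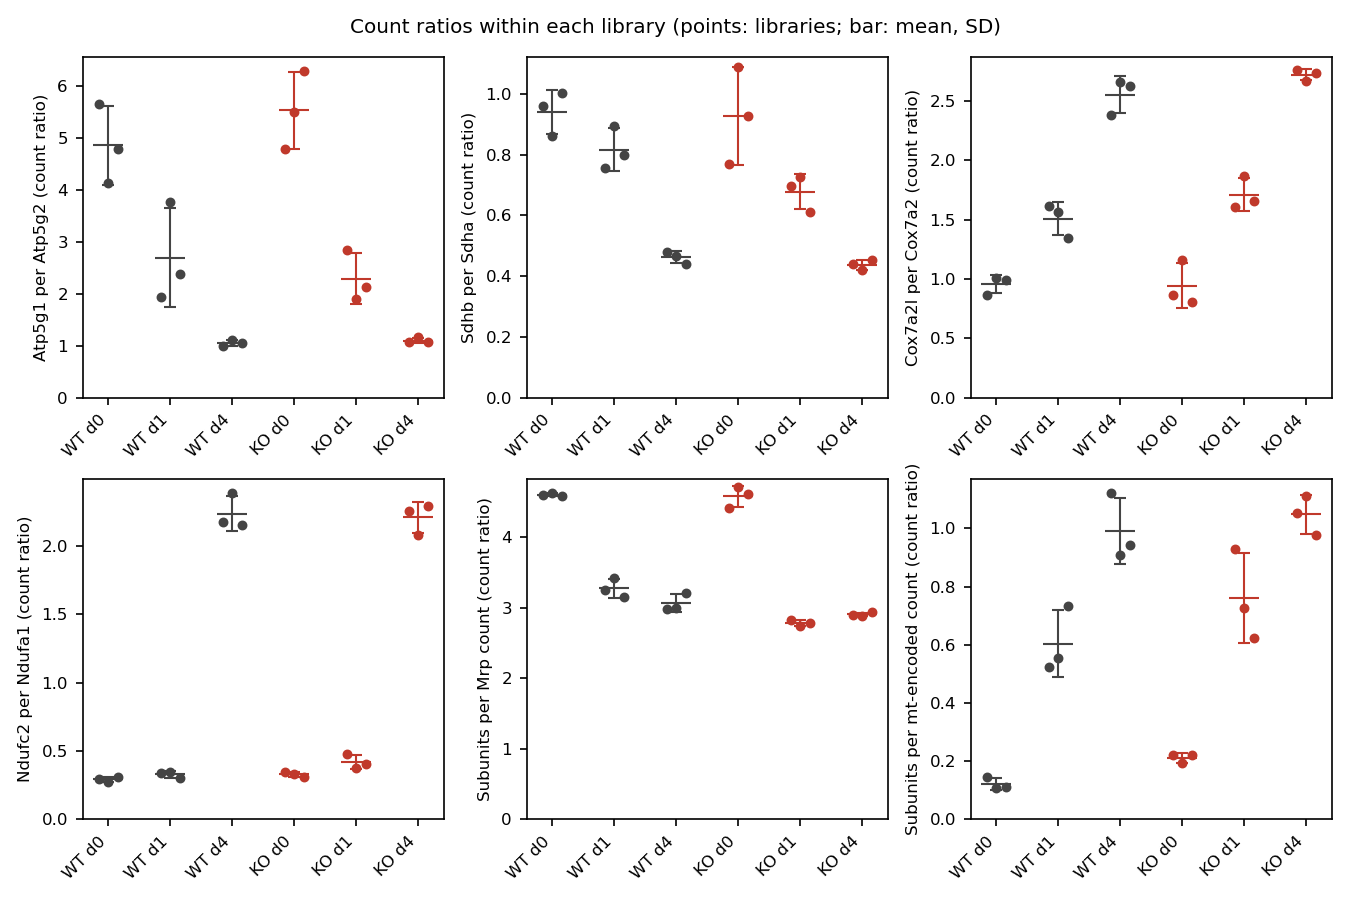
Count ratios within each library (points; bars are mean and SD, N = 3; WT grey, KO red), which do not depend on scaling between libraries. Atp5g1 per Atp5g2 and Sdhb per Sdha decline to 1.05 and 0.462 at day 4 in WT, Cox7a2l per Cox7a2 and Ndufc2 per Ndufa1 rise to 2.55 and 2.24, the 77 genes per count of mitochondrial ribosomal proteins (Mrp) go from 4.60 to 3.06, and per mitochondrially encoded count from 0.122 to 0.991.

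The subunits were also set against other mitochondrial genes within each library. Counts of the 77 genes per count of the 13 mitochondrially encoded subunits were 0.122 ± 0.0221 in WT at day 0, 0.604 ± 0.114 at day 1 and 0.991 ± 0.114 at day 4. In KO the ratio was 0.211 ± 0.0158, 0.761 ± 0.156 and 1.05 ± 0.0670, at day 0 above all WT libraries. Of the 13 encoded in mitochondrial DNA, 7 passed the filter, all 7 were called lower from day 0 to day 1 in WT, and their median log2 fold change was -3.11. The genes mt-Co2, mt-Co3, mt-Atp6, mt-Atp8, mt-Nd3 and mt-Nd4l did not pass the filter on low counts. The ratios above therefore rest mainly on the 7 that did. Counts per count of mitochondrial ribosomal proteins were 4.60 ± 0.0220, 3.27 ± 0.136 and 3.06 ± 0.130 in WT, and 4.58 ± 0.155, 2.78 ± 0.0440 and 2.90 ± 0.0247 in KO. At day 1 the 3 KO libraries lay below the 3 WT libraries. In KO against WT, all 7 mitochondrially encoded genes tested were lower at day 0 (median -0.92), 4 at day 1 and 1 at day 4, while of the 76 mitochondrial ribosomal proteins 0, 0 and 1 were lower. Of all genes, 0.53%, 1.17% and 6.4% were lower at these days.

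The genes that build and regulate the chain were counted over the same first day in WT. Of all genes tested, 26.9% were lower and 28.6% higher at that step. Of 46 assembly factors, 45 were tested in WT and 14 were lower and 4 higher, with a median of -0.33. Of 15 regulators of mitochondrial biogenesis, 5 were lower and 5 higher (median 0.21), and of 13 enzymes of the tricarboxylic acid cycle 8 were lower and 1 higher (median -0.46). Mitochondrial ribosomal proteins had 22 of 76 lower and 10 higher (median -0.13), and cytosolic ribosomal proteins had 67 of 85 lower and 2 higher (median -0.35). These medians stand beside -0.74 for the subunits, and the differences between lists were not tested. Ppargc1a, a coactivator known for mitochondrial biogenesis, fell on the first day (log2 fold change -2.17 ± 0.40 (SE), adjusted p = 2.69e-05) and rose from day 1 to day 4 (1.84 ± 0.33 (SE), adjusted p = 2.54e-05). Nrf1 went the other way, with 1.31 ± 0.17 (SE), adjusted p = 6.7e-08 and then -0.97 ± 0.12 (SE), adjusted p = 7.95e-08. So did Gabpb1, with 1.49 ± 0.19 (SE), adjusted p = 9.2e-08 and then -0.33 ± 0.13 (SE), adjusted p = 0.0345. Gabpa was not called on the first day (0.27 ± 0.17 (SE), adjusted p = 0.174) and fell from day 1 to day 4 (-0.64 ± 0.14 (SE), adjusted p = 0.00021). Of the 7 subunits or close partners missed by the choice of symbols, 6 were tested and 4 were lower (median -0.46). From day 1 to day 4 in WT the counts lower and higher were 9 and 9 for assembly factors, 6 and 5 for biogenesis regulators, 5 and 4 for the tricarboxylic acid cycle, 17 and 8 for mitochondrial and 31 and 9 for cytosolic ribosomal proteins. At this step 26% of all genes were lower and 26.3% higher.

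Loss of xCT was then compared at each day. At day 0, 0 of 75 genes were called in either direction in edgeR, where 0.53% of all genes were lower and 0.644% higher, or in DESeq2 (0.992% and 1.25%), and 5 had an unadjusted p under 0.05 (13.2% of all genes). The median log2 fold change of KO against WT was -0.08, and without WT replicate 1 it was 0.05. The 3 KO libraries lay below the 3 WT libraries for 1 gene (5.79% of all genes). The value farthest from 0, -1.60 ± 0.66 (SE), adjusted p = 0.274 for Atp5s, rested on 0 to 16 counts in a library.

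At day 1, 2 of 75 genes were called lower in KO and 0 higher (1.17% and 0.273% of all genes). Ndufa1 had 33.6, 36.4 and 31.3 CPM in WT and 21.5, 24.7 and 24.3 in KO (log2 fold change -0.52 ± 0.10 (SE), adjusted p = 0.00678), and Atp5g1 had 36.1, 41.8 and 39.9 against 34.4, 24.4 and 28.8 (-0.43 ± 0.11 (SE), adjusted p = 0.0451). In both the groups did not overlap. With the replicate number as a block the adjusted p of Atp5g1 was 0.0593. Outside the 75, Usmg5, which the choice of symbols missed, was also called lower in KO (-0.53 ± 0.13 (SE), adjusted p = 0.0373). The other tested genes missed by the symbols were not called at this day. DESeq2 called 14 members lower and 0 higher (2.92% and 1.33% of all genes), and 33 of the 75 had an unadjusted p under 0.05 in edgeR (13.8% of all genes in either direction). The median over the members was -0.22, 70 of the 75 values were below 0, and for 36 genes all KO libraries lay below all WT libraries (9.86% of all genes). On library totals 22 of the 75 were below 0 with a median of 0.10, while the median of all genes was 0.32. Without WT replicate 1, 2 or 3 of day 1 the count of calls was 1, 0 and 1, without KO replicate 2 or 3 it was 1 and 1, and without WT replicate 1 at all days it was 3 (0.922% of all genes). Atp5l, subunit g, was at 3.61, 6.72 and 3.43 CPM in WT and 2.47, 2.73 and 2.09 in KO, and -0.90 ± 0.26 (SE) did not pass (adjusted p = 0.0702), though it did in DESeq2 (0.0171). It has 9 near-identical pseudogenes. At this day the fibroblast markers summed to 8.82 to 12.5 CPM in WT and 12.8 to 49.6 in KO, and none of the 8 was called lower.

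At day 4, 2 other genes of the 75 were called lower in KO and 0 higher (6.4% and 3.82% of all genes). Atp5d, the delta subunit of ATP synthase, had 73.9, 69.7 and 81.4 CPM in WT and 56.6, 57.4 and 58.7 in KO (-0.38 ± 0.10 (SE), adjusted p = 0.00916). Atp5o had 37.1, 35.4 and 39.7 against 27.6, 29.9 and 30.6 (-0.35 ± 0.11 (SE), adjusted p = 0.0336). Neither overlapped between genotypes. The day 4 values of the genes called at day 1 were -0.24 ± 0.10 (SE), adjusted p = 0.128 for Ndufa1 and -0.11 ± 0.10 (SE), adjusted p = 0.555 for Atp5g1. The median over the members was -0.18, with 69 of 75 below 0, and for 47 genes all KO libraries lay below all WT libraries (22.6% of all genes). On library totals the median was -0.01 with 40 of 75 below 0. Mean TMM factors at this day were 3.32 in KO and 2.95 in WT, so library totals move every gene upward in KO against WT. The value of -0.01 is thus not a distance from the median gene.

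The count at day 4 depended on the fit. It was 32 lower and 1 higher when only the 2 day 4 groups were fitted, where 14.5% of all genes were lower and 13.9% higher. It was 13 lower and 0 higher in DESeq2 (9.54% and 6.9% of all genes), and 4 lower and 0 higher without WT replicate 1 (4.9% and 2.41%). Without WT replicate 1 or 3 of day 4 alone it was 1 and 0, and without KO replicate 1, 2 or 3 it was 1, 0 and 1. An unadjusted p under 0.05 was found for 26 of the 75 and 24.3% of all genes. Fibroblast markers moved with genotype at this day: all 8 were called lower in KO, their summed level was 234 to 322 CPM in WT and 25.1 to 57.2 in KO, and none was at 0 in any day 4 library. Digestive enzyme genes were lower too, 15 of 32 tested at day 4 and 6 of 32 at day 1. Their part in the subunit values was not tested.

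**Figure D5:**
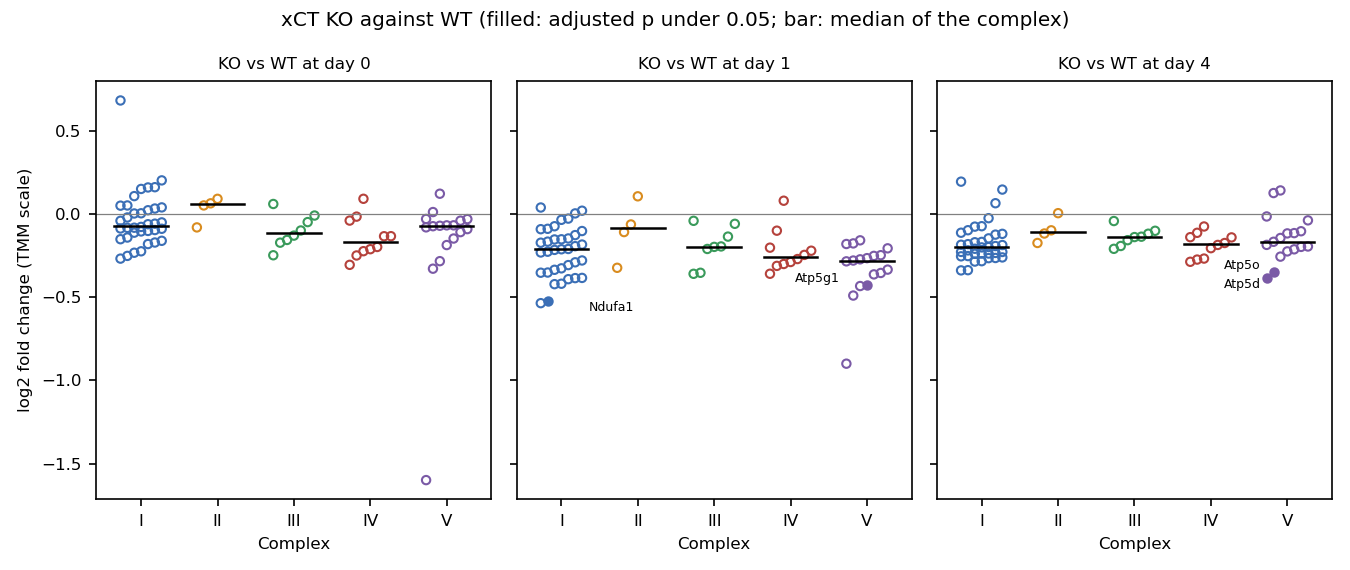
log2 fold change of KO against WT for each tested gene on the TMM scale, by complex and day. Filled points have an adjusted p under 0.05 and bars are medians of the complex. Most points at day 1 and day 4 lie a little below 0 (members' medians -0.22 and -0.18). On library totals these medians are 0.10 and -0.01, on a scale that moves every gene upward in KO against WT. Ndufa1 and Atp5g1 are called at day 1 and Atp5d and Atp5o at day 4.

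Whether the genotypes differed in their course was tested directly as the difference of the changes. For day 0 to day 1, 0 of 75 genes were called in either direction in edgeR (0.0833% and 0.0151% of all genes were lower and higher) and 1 was lower in DESeq2 (0.576% of all genes), and 6 had an unadjusted p under 0.05 (10.7% of all genes). The values for Ndufa1 and Atp5g1 were -0.53 ± 0.15 (SE, adjusted p = 0.164) and -0.55 ± 0.16 (adjusted p = 0.171), on the side of a steeper first-day fall in KO. For day 1 to day 4, 0 were called in edgeR (1.67% of all genes were lower and 0.924% higher) and in DESeq2 (3.08% and 2.09%), with 2 at an unadjusted p under 0.05 (14.4% of all genes). The members' medians were -0.15 and 0.06. The comparisons of KO with WT share libraries with these differences and with the changes over time, so they are not separate evidence.

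Gene properties and copies limit single values. The members were short, with a median length of 1485 bases against 4033 for the 12525 protein-coding genes tested, and had a median GC content of 50.23% against 49.84%. Among the 75, the first-day change in WT had a Spearman correlation of 0.02 with length and -0.11 with GC, across genes, which share libraries and are not independent. For 25 of the 77, at least 1 other annotated gene holds a stretch of 75 or more bases at 95% identity or more, most often a pseudogene, and the exons of 28 overlap those of another gene, 25 of them on the opposite strand. Ndufb6 shares 39% of its exonic bases with Smim27 on the opposite strand, and Ndufa13 shares 30% with Tssk6. Ndufa1, Ndufb11 and Cox7b lie on the X chromosome, and WT replicate 1 was the only library set with Y-linked counts.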

How the data were processed

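RNA-seq of 18 libraries was analysed from 2 deposited tables. The authors counted reads per gene with featureCounts 1.5.3 (per the labels' processing notes, GRCm38), and deposited raw counts with gene length and GC percent, and FPKM that EDASeq had quantile-normalized within each library and across libraries. The strand setting of the counting is not given in the sources used here. The 77 genes and the other gene lists were chosen with earlier results of these data known. Counts were tested with edgeR 4.0.16 (R 4.3.3; TMM, filterByExpr, a quasi-likelihood fit of all 6 groups, robust), with Benjamini-Hochberg adjustment over 13203 genes and a threshold of 0.05. The deposited FPKM were used only for levels between genes and, as log2(FPKM + 1), in an alternative with limma 3.58.1. The fits were tested on simulated data. Alternatives were other scalings, no filter, DESeq2 1.42.0, only the groups compared, a replicate block, and leaving out each library or WT replicate 1. Named were, per complex, the 2 highest and 2 lowest changes in WT at each step, genes called in KO against WT, isoform sets, core subunits, and the 3 highest and lowest FPKM, and beside them Slc7a11 and Ppargc1a. Atp5l, Atp5s and Usmg5 at KO against WT, and Nrf1, Gabpa and Gabpb1 over time, were added after their values were seen. Promoters came from a RefSeq table (GRCm38.p6), gene positions and overlaps from GENCODE. Libraries of 12127474 to 20135435 counts gave a median count per member of 221 to 1488.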

Additional observations from a re-analysis of the deposited data

How the results depend on the processing

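Scaling moved the results over time most. From day 1 to day 4 in WT, 92.4% of all genes were called higher and 2.28% lower on library totals. On totals without the enzyme genes it was 48.8% and 14.6%. The median gene rose on library totals at each step, as given above. Member counts below that stand without a share over all genes are therefore no result about the members alone. On library totals, members called higher and lower were 34 and 1 for WT day 0 to day 1, 40 and 1 for KO, and 75 and 0 for day 1 to day 4 and for day 0 to day 4 in both genotypes; KO against WT gave 2 higher and 0 lower at day 1 and 0 lower at day 4. On totals without the enzyme genes they were 1 higher for WT day 0 to day 1, 39 and 10 for WT day 1 to day 4, 11 and 34 for WT day 0 to day 4, 42 and 9 for KO day 1 to day 4, 10 and 37 for KO day 0 to day 4, 1 lower at day 1 and 1 higher and 1 lower at day 4 in KO against WT. Without the filter, 6 members were lower in KO at day 1, and 2 were higher from day 0 to day 4 in KO. DESeq2 gave 14 lower in KO at day 1, 13 at day 4 and 1 in the difference of first-day changes. With only the groups compared, 1 was higher and 32 lower in KO at day 4. Without WT replicate 1, 4 were lower in KO at day 4. With limma on FPKM there were 13 higher and 17 lower for WT day 1 to day 4, 13 and 14 for KO, 2 higher for KO day 0 to day 4, 1 higher in KO at day 0, 1 lower at day 1 and 0 lower at day 4. Apart from the scalings, the filter and the number of samples, whose construction differs, the cause was not tested. Directions that turned on library totals were those from day 0 to day 1 in WT for Ndufa1 (0.19), Sdha (0.39), Sdhb (0.18), Uqcr11 (0.0556), Cox7a2l (0.91), Atp5g2 (0.78) and Ndufc2 (0.36). From day 1 to day 4 in WT they were Ndufa1 (0.33), Ndufv3 (0.89), Sdha (1.91, and 0.33 without the enzyme genes), Sdhb (1.10), Uqcrq (1.19), Cox7b (1.46), Atp5g1 (0.71), Atp5o (1.17) and Atp5g2 (1.97, and 0.39 without the enzyme genes). From day 0 to day 4 in WT they were Ndufa1 (0.53), Atp5g1 (0.56) and Sdhb (1.28), in KO Ndufa1 (0.39), Atp5g1 (0.44) and Sdhb (1.15), and from day 1 to day 4 in KO Ndufa1 (0.47).

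Leaving out 1 library at a time gave 60 to 68 lower and 0 to 1 higher for WT day 0 to day 1, 22 to 30 lower and 5 to 7 higher for WT day 1 to day 4, 60 to 67 lower for WT day 0 to day 4, 66 to 69 lower for KO day 0 to day 1, 21 to 22 lower and 5 to 11 higher for KO day 1 to day 4, 64 to 68 lower for KO day 0 to day 4, and 0 to 2 lower in KO at day 1 and at day 4. The higher count in KO from day 1 to day 4 was 5 without KO day 1 replicate 3, KO day 4 replicate 1 or KO day 4 replicate 3. In the difference of first-day changes 0 to 1 were lower. The adjusted p of Ndufa1 at day 1 was 0.072 without WT replicate 2. That of Atp5g1 was 0.0625 to 0.318 without 5 of the 6 libraries, that of Atp5d at day 4 was 0.0718 without WT replicate 3 and 0.0523 without KO replicate 2, and that of Atp5o was 0.0518 to 0.156 without any 1 of the 6. Same-numbered libraries of a genotype had correlations of -0.0369 to 0.225 in their deviations, and the labels name no shared source, so the numbers were not taken as pairs. The Y-linked counts of WT replicate 1 at all 3 days are a hint from the data that at least this number marks 1 source over time in WT. With the replicate block 1 member was lower in KO at day 1, the call of Atp5g1 being lost (adjusted p = 0.0593). For the changes over time the block (genotype and number) gave 67 lower for WT day 0 to day 1, 29 lower and 6 higher for WT day 1 to day 4, 69 lower for KO day 0 to day 1, 21 lower and 7 higher for KO day 1 to day 4, and 0 in either direction for both differences of changes. Depth limits Atp5s, Cox6a2 and Ndufa4l2, whose counts were few.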
